A study of Mus musculus with 6 samples.

Results

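The genes described here encode 10 matricellular and provisional matrix glycoproteins of granulation tissue: fibronectin (Fn1), tenascin-C (Tnc), tenascin-W (Tnn), periostin (Postn), thrombospondins 1 and 2 (Thbs1, Thbs2), osteopontin (Spp1), SPARC (Sparc) and the CCN proteins CTGF (Ctgf, now Ccn2) and CYR61 (Cyr61, now Ccn1). They were chosen by name, and a probe counted as theirs if its RefSeq accession belonged to that gene. All 10 genes were found, with 12 probes in all, and each probe was well above background on all 6 arrays, so no member was lost to the filter that left 16408 genes. RNA came from skin wounds of male C57/BL6 mice on day 3 after injury, from 3 wild-type (WT) and 3 FoxO1 +/- animals, the latter lacking 1 working copy of the forkhead transcription factor gene Foxo1. Each mouse received 4 full-thickness dorsal wounds from a 4 mm punch, and the harvested 6 mm disc also holds a rim of the skin around the wound. The age of the mice, the part of Foxo1 that was disrupted and whether wounds of a mouse were pooled are not given in the sources used here, and each p-value therefore rests on the spread between single arrays, which may be partly technical. The comparison asks which wound transcripts differ when a Foxo1 copy is missing.

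Matricellular proteins are secreted into the extracellular matrix, where they act mainly on cell behaviour rather than as load-bearing fibres. They bind integrins and other surface receptors, growth factors and proteases, and several are scarce in resting skin and abundant in healing wounds. Fibronectin differs in that it also forms a fibrillar scaffold, first from plasma and then from wound cells, on which fibroblasts and keratinocytes migrate.

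All 6 arrays were hybridised on 1 slide and read in 1 scan. All 3 WT arrays and FoxO1 +/- replicate 1 lay in slide row 1, and FoxO1 +/- replicates 2 and 3 lay in row 2. Differences given below with slide row as a block therefore compare FoxO1 +/- replicate 1 alone with WT. Between 64.3% and 71.9% of non-control spots were well above background, with the lowest share on FoxO1 +/- replicate 3. The keratin genes Krt5, Krt14, Krt1, Krt10, Krt6a and Krt16, which mark resting and activated epidermis, were well above background on all 6 arrays, as the skin label requires. The Foxo1 signal was lower on every FoxO1 +/- array than on every WT array for both of its probes, by log2 differences of -0.48 (SE 0.15) and -0.89 (SE 0.14), with limma adjusted p-values over all kept probes of 0.547 and 0.190. Neither probe could be placed against the deleted stretch, so they may not check the label. WT replicate 1 stood apart in hair follicle markers, with a log2 summed level of 6.00 against 1.59 to 2.46 on the other 5 arrays. WT replicate 2 stood apart in adipocyte markers, at 7.94 against 8.69 to 9.30. Results are therefore also given without these arrays.

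No member differed between the genotypes beyond the spread between animals. None of the 10 passed a limma adjusted p of 0.05, a threshold passed by 1 of the 16408 genes (0.00609%). None had an unadjusted p under 0.05 either, against 6.25% of all genes, and on the probe that stands for each gene none had groups that did not overlap, against 11.5% of all genes. In FoxO1 +/- wounds 6 members had higher and 4 had lower mean values, and 53.7% of all genes had higher ones. The median difference over the members was 0.06 on the log2 scale, against 0.01 over all genes. The widest differences, for Tnn and Spp1, had the widest intervals, and the narrowest intervals were those of Ctgf and Sparc. Levels below are log2 signals relative to the array's 75th percentile, and since each probe has its own brightness, a level can be set against the same probe on other arrays and not against another gene. RNA was taken from whole wounds, so fewer cells of a type and less RNA per cell cannot be told apart.

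**Figure D1:**
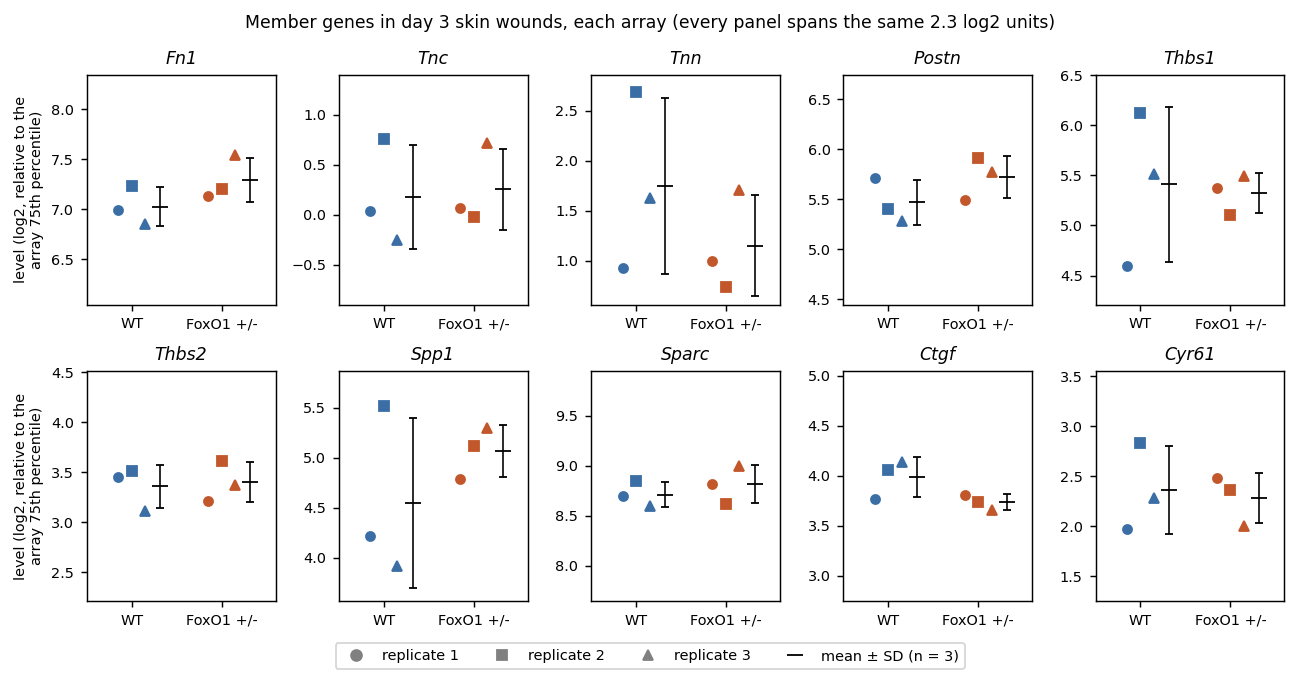
Level of each of the 10 genes on each array (log2 signal relative to the array's 75th percentile). Points are single arrays, with WT in blue and FoxO1 +/- in orange, and bars are the mean ± SD of 3 arrays. In all 10 panels the genotypes overlap, and Tnn, Thbs1 and Spp1 spread most among WT animals.

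Fibronectin, the scaffold of the early wound, was at a mean level of 7.03 ± 0.20 (SD, n = 3) in the WT wounds, against 7.29 ± 0.22 (SD, n = 3) in the FoxO1 +/- wounds. The 3 WT arrays read 6.999, 7.24 and 6.85, and the 3 FoxO1 +/- arrays read 7.13, 7.20 and 7.55. WT replicate 2 lay above FoxO1 +/- replicates 1 and 2, so the genotypes overlapped, with the highest value on FoxO1 +/- replicate 3 and the lowest on WT replicate 3. The log2 difference was 0.26 (SE 0.15, 95% interval -0.10 to 0.63, limma adjusted p 0.868). With slide row as a block it was 0.10, with quantile normalization 0.10, and without FoxO1 +/- replicate 3 it was 0.14. The 95% interval with all arrays runs from 0.93 to 1.55 times the WT level.

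Periostin, which fibroblasts secrete and which binds integrins and promotes collagen cross-linking, read 5.72, 5.41 and 5.29 in WT wounds, against 5.50, 5.91 and 5.77 in FoxO1 +/- wounds. WT replicate 1 lay above FoxO1 +/- replicate 1, and the other WT arrays lay below all FoxO1 +/- arrays. The log2 difference was 0.26 (SE 0.16, 95% interval -0.12 to 0.64, limma adjusted p 0.882). With slide row as a block it was 0.03.

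SPARC, a collagen-binding glycoprotein needed for orderly collagen deposition, was measured by 2 probes. On the brighter, A_55_P2046812, the WT arrays read 8.70, 8.84 and 8.60 and the FoxO1 +/- arrays 8.82, 8.62 and 9.001. The ranges overlapped, with FoxO1 +/- replicate 3 above all WT arrays. The log2 difference on this probe was 0.10 (SE 0.12, 95% interval -0.20 to 0.40, limma adjusted p 0.966) and turned to -0.01 with quantile normalization. This probe was among the brightest on the arrays, with signals of 440422 to 528450 against a saturation value of 779477, and it was not flagged as saturated. On the dimmer probe, A_55_P2046807, the levels were 6.16, 6.27 and 6.22 in WT and 6.34, 6.36 and 6.40 in FoxO1 +/- wounds. All 3 FoxO1 +/- values were above all 3 WT values there, and groups did not overlap for 12.8% of all kept probes. Before scaling, the signals were 83857, 88929 and 96713 in WT and 88450, 91588 and 75839 in FoxO1 +/- wounds, and they overlapped. FoxO1 +/- replicate 3 had the lowest of these signals and also the lowest 75th percentile, 899. The difference on that probe was 0.15 (SE 0.08), with a limma adjusted p of 0.816 over all kept probes.

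Tenascin-C, an anti-adhesive glycoprotein induced at wound margins and in granulation tissue, varied more within than between genotypes. On its brighter probe, A_52_P355169, the WT arrays read 0.04, 0.75 and -0.26 and the FoxO1 +/- arrays 0.07, -0.02 and 0.71. WT replicate 2 and FoxO1 +/- replicate 3 were high, and the other 4 arrays were low. The log2 difference was 0.07 (SE 0.31, 95% interval -0.69 to 0.84, limma adjusted p 0.995), and on the dimmer probe, A_55_P2421597, it was -0.08 (SE 0.29). The same 2 arrays were high on the dimmer probe, at -0.76 for WT replicate 2 and -1.01 for FoxO1 +/- replicate 3 against -1.71 to -1.48 on the others.

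Tenascin-W, a relative of tenascin-C known from bone, stem cell niches and tumour stroma, had the widest spread among the members. The WT arrays read 0.93, 2.68 and 1.63 and the FoxO1 +/- arrays 0.99, 0.74 and 1.71. WT replicate 2 was far above the other 5 arrays, and WT replicate 1 lay among the FoxO1 +/- values. Its levels spanned 1.94 log2 units, or 3.84-fold, from FoxO1 +/- replicate 2 to WT replicate 2. This gave a log2 difference of -0.60 (SE 0.48, 95% interval -1.76 to 0.57, limma adjusted p 0.916), and it was -0.13 without WT replicate 2.

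The thrombospondins are large secreted glycoproteins that restrain vessel growth, and thrombospondin 1 also activates latent TGF-beta and is a major protein of platelet granules. Thbs1 read 4.59, 6.13 and 5.52 in WT wounds, against 5.38, 5.10 and 5.49 in FoxO1 +/- wounds. The WT arrays held both its lowest and its highest value, with all FoxO1 +/- values between them. The log2 difference was -0.09 (SE 0.38, 95% interval -1.01 to 0.84, limma adjusted p 0.995), and without WT replicate 2 it turned to 0.27. Thbs2, which rises later than Thbs1 in mouse wounds, was steadier, at 3.46, 3.51 and 3.11 in WT and 3.21, 3.62 and 3.38 in FoxO1 +/- wounds. The genotypes overlapped, with a log2 difference of 0.04 (SE 0.15, 95% interval -0.33 to 0.41, limma adjusted p 0.995). The Thbs2 interval holds changes down to 0.80 and up to 1.33 times the WT level.

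Osteopontin, a phosphorylated glycoprotein that macrophages and other cells secrete and that binds integrins and CD44, parted WT animals most after tenascin-W. The WT arrays read 4.22, 5.52 and 3.92, a span of 1.596 log2 units from the lowest to the highest, and the FoxO1 +/- arrays read 4.79, 5.12 and 5.30. WT replicates 1 and 3 lay below all FoxO1 +/- arrays, and WT replicate 2 lay above them all. Spp1 thus differed by 0.52 on the log2 scale (SE 0.42, 95% interval -0.51 to 1.54, limma adjusted p 0.918). Without WT replicate 2 it was 1.00 (SE 0.18, limma adjusted p 0.184, unadjusted p 0.00265), which leaves 2 WT arrays. Without WT replicate 3 it fell to 0.20 (unadjusted limma p 0.645), and with slide row as a block to 0.23. Monocyte and macrophage markers had log2 summed levels of 8.67, 8.92 and 8.75 in WT wounds, against 8.94, 8.87 and 8.89 in FoxO1 +/- wounds. The sum is weighted to the brightest probes. Mean levels over the same markers were 4.00, 4.07 and 4.01 in WT and 4.19, 4.23 and 4.10 in FoxO1 +/- wounds. By that measure the genotypes did not overlap, and WT replicate 2 lay below all FoxO1 +/- arrays. On each of the 6 arrays all 13 measured markers were well above background. Of these markers 12 had higher mean values in FoxO1 +/- wounds (median difference 0.14), 4 with groups that did not overlap and 2 with an unadjusted p under 0.05, and none passed the adjusted threshold. Of all genes, 53.7% had higher values, 11.5% had groups that did not overlap and 6.25% had an unadjusted p under 0.05. The part of these markers in the Spp1 values was not tested.

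The CCN proteins bind integrins and heparan sulphate, and their genes are immediate responders to TGF-beta, stretch and the co-activators YAP and TAZ. Ctgf read 3.76, 4.06 and 4.14 in WT wounds, against 3.81, 3.74 and 3.66 in FoxO1 +/- wounds. WT replicate 1 lay among the FoxO1 +/- arrays, and the other WT arrays lay above them. Its log2 difference was -0.25 (SE 0.12, 95% interval -0.54 to 0.03, limma adjusted p 0.826), the smallest unadjusted p of any member at 0.0727. Cyr61 read 1.97, 2.84 and 2.28 in WT and 2.48, 2.36 and 1.999 in FoxO1 +/- wounds, with WT replicate 2 highest. WT again held its lowest and highest values, and the log2 difference was -0.08 (SE 0.24, 95% interval -0.68 to 0.51, limma adjusted p 0.995). Without WT replicate 2 the Cyr61 difference was 0.15.

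**Figure D2:**
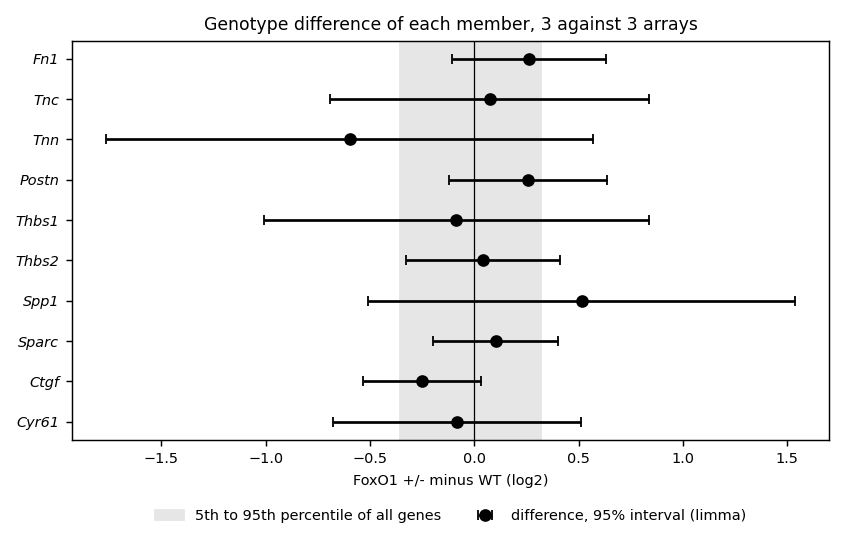
Difference of each gene between FoxO1 +/- and WT wounds (log2) with the 95% interval from limma, 3 against 3 arrays. The grey band spans the 5th to 95th percentile of the differences of all 16408 genes (-0.36 to 0.32). All 10 intervals include 0, and those of Tnn and Spp1 are the widest.

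Upstream sequence was at hand for 7 of the 10 genes, in 10 RefSeq promoter entries (GRCm38.p6), and the 250 bases before each start were searched on both strands. Fn1, Thbs1 and Ctgf had no entry and were not searched. The FoxO core letters TGTTTAC occurred in none of the 7 genes, against 3.54% of all 27025 genes with such a window. The TEAD letters GGAATG occurred in 2 genes, Tnn and Cyr61, against 14.4% of all those genes. The windows of these 2 genes are shown, with the TEAD letters in capitals. Cyr61 is a textbook target of the YAP and TEAD factors, and Tnn varied most among the members. The letters are read on the opposite strand in Cyr61, as CATTCC. The Tnn window is chr1:160153576-160153825 and the Cyr61 window chr3:145649986-145650235, both on the minus strand and written 5′ to 3′ of the gene.
Tnn: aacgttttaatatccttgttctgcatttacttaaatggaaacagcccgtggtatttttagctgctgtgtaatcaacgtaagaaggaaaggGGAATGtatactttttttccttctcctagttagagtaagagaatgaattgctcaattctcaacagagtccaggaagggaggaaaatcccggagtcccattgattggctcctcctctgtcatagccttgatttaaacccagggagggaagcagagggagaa
Cyr61: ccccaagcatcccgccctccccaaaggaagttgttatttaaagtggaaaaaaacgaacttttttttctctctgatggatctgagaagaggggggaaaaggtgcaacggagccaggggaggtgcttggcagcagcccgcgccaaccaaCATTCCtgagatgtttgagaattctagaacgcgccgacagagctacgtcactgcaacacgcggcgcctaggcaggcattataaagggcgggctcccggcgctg
A match is a run of letters and not a shown binding site. With 7 genes searched, a count of 0 cannot be told from a share of 3.54%. The absence of an exact run in 250 bases also does not show that a gene lacks FoxO sites. Of the 2 genes with the TEAD letters, Cyr61 had a log2 difference of -0.08 and Tnn one of -0.60, neither past the threshold.

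The members differed in how far they varied between animals of the same genotype. The pooled within-genotype SD was 0.72 for Tnn, 0.63 for Spp1, 0.57 for Thbs1, 0.47 for Tnc and 0.36 for Cyr61, above the SD of 98.1%, 97.2%, 96.1%, 93.3% and 87.9% of all genes. It was 0.22 for Postn, 0.21 for Fn1 and Thbs2, 0.16 for Sparc and 0.15 for Ctgf, and the median over all genes was 0.14. The SD was larger among WT than among FoxO1 +/- animals for 8 of the 10 members and for 54.7% of all genes. The variable genes were high together on WT replicate 2, which held the highest value of 5 members, Tnc, Tnn, Thbs1, Spp1 and Cyr61. That array was above the mean of the other 5 for 9 of the 10 members, Postn being the exception. WT replicate 3 held the lowest value of 6 members and WT replicate 1 that of 2, Thbs1 and Cyr61. FoxO1 +/- replicate 3 was above the mean of the other 5 arrays for 7 of the 10. This array had the lowest 75th percentile signal, 899, and the lowest share of spots well above background, 64.3%. Fn1 and Sparc, the 2 members highest on it, were below WT replicate 2 before scaling. Their signals were 168108 against 173339 for Fn1 and 460583 against 528450 for Sparc. The part of the scaling in the levels of this array was not tested.

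The members did not all follow this order. Postn and Ctgf ran opposite ways, with Ctgf highest and Postn lowest on WT replicate 3 and Ctgf low where Postn was high on FoxO1 +/- replicates 2 and 3. Over the 6 arrays, which share 1 slide and 1 scaling, the 5 genes outside the members whose levels were most like the members' mean profile were Selenok, Tes, Zfp462, Rlim and Tmem37, with Pearson r of 0.991 to 0.997. This is a description of 6 points that were searched over all genes.

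Marker lists of other cells moved with these arrays. Platelet markers had log2 summed levels of 7.25, 7.98 and 7.50 in WT wounds, against 7.63, 7.70 and 8.05 in FoxO1 +/- wounds, high on the same pair of arrays as Tnc, and on each array all 7 measured markers were well above background. Neutrophil markers were at 9.05, 9.53 and 9.14 in WT and 9.28, 9.09 and 9.56 in FoxO1 +/- wounds, high on that pair too. WT replicate 2, high in most members, was low in adipocyte markers and read 8.57 in skeletal muscle markers, against 9.34 and 9.91 on the other WT arrays. Skeletal muscle markers also read 8.58 on FoxO1 +/- replicate 3, against 9.83 and 9.64 on the other FoxO1 +/- arrays. Fibroblast markers were even, at 10.71 to 10.80 in WT and 10.80 to 10.91 in FoxO1 +/- wounds. Of 15 fibroblast markers 12 had higher values in FoxO1 +/- wounds (median difference 0.10), as did 3 of 9 measured myofibroblast and smooth muscle markers (median -0.11), and none of either list had an unadjusted p under 0.05. All 10 endothelial markers had higher values in FoxO1 +/- wounds (median 0.20), 5 with groups that did not overlap and 3 with an unadjusted p under 0.05. The endothelial median was 0.07 with slide row as a block and 0.14 without WT replicate 2. Of all genes, 53.7% had higher values, 11.5% had groups that did not overlap and 6.25% had an unadjusted p under 0.05. Of 14 adipocyte markers 13 had higher values (median 0.60), 8 of them with groups that did not overlap and 6 with an unadjusted p under 0.05, and the other 1 was lower by the same measures. WT replicate 2 was the low array for these markers, as above, and without it the median was 0.40. With slide row as a block it was 0.41. All 14 measured hair follicle markers had lower values (median -1.27), 2 with groups that did not overlap and 1 with an unadjusted p under 0.05. Only 10 of the 14 were well above background on all 6 arrays. WT replicate 1 stood apart as above, and without it the median was -0.46. No gene of these lists passed the adjusted threshold. The part of these lists in the members' levels was not tested.

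**Figure D3:**
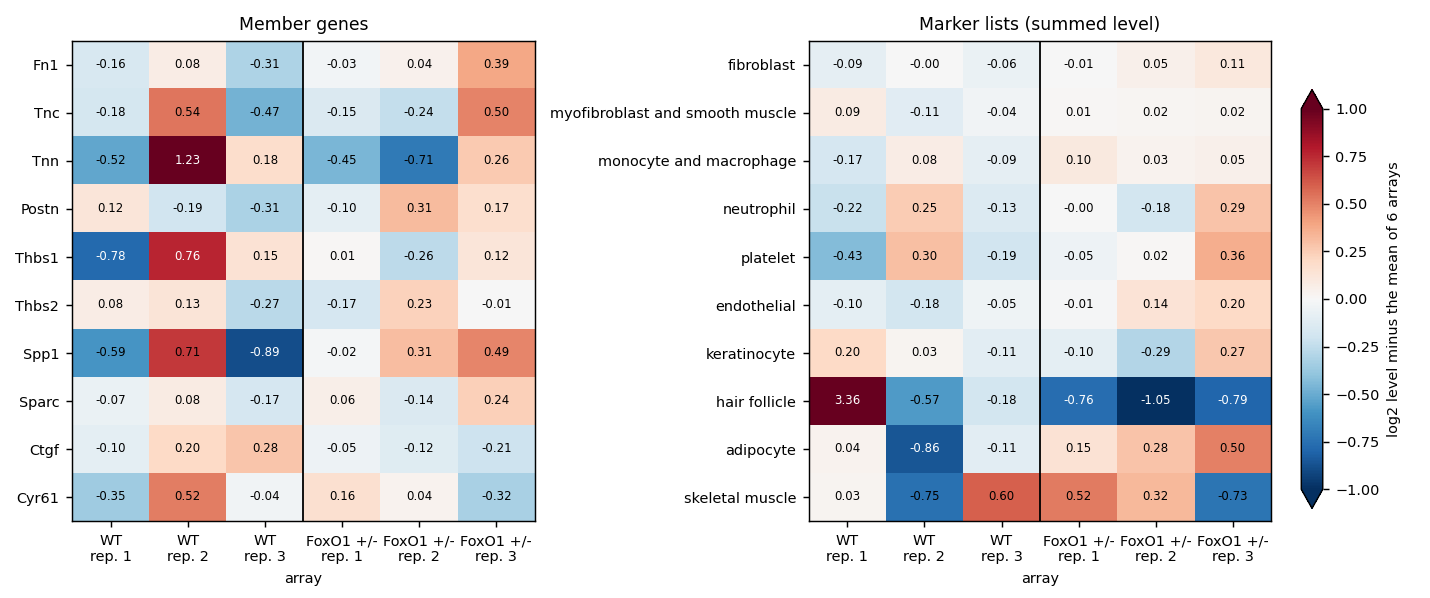
Level of each member gene (left) and log2 summed level of each marker list (right) on each array, minus the mean of the 6 arrays. Red is above and blue below that mean, the colours stop at 1 and -1, and the black line parts WT from FoxO1 +/- arrays. WT replicate 2 is red for 9 of the 10 members. It is blue for adipocyte, skeletal muscle, hair follicle, endothelial, and myofibroblast and smooth muscle markers.

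Related secreted glycoproteins were taken as a list, chosen like the members with earlier results known. The 32 listed relatives include other tenascins, thrombospondins, CCN proteins, fibulins and SPARC-related proteins, and 29 were measured. None passed an unadjusted p of 0.05, against 6.25% of all genes. In FoxO1 +/- wounds 19 had higher and 10 lower values, and 53.7% of all genes had higher ones. Their differences ran from -0.47 to 0.38 with a median of 0.07. Lgals3, which encodes the lectin galectin-3, was the member of this list whose groups did not overlap: it read 7.38, 7.47 and 7.36 in WT and 7.50, 7.48 and 7.66 in FoxO1 +/- wounds. Its difference was 0.14 (SE 0.08, limma adjusted p 0.871). Groups did not overlap for 11.5% of all genes.

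Of 24 measured receptor genes for the members, including integrin subunits, CD44, CD36, CD47 and syndecans, 13 had higher and 11 lower values, with a median difference of 0.04. At an unadjusted p of 0.05 there was 1, against 6.25% of all genes, and no receptor passed the adjusted threshold. That gene was Stab1, which encodes the scavenger receptor stabilin-1 that takes up SPARC. It read 4.12, 4.07 and 3.88 in WT and 4.17, 4.54 and 4.35 in FoxO1 +/- wounds, a difference of 0.33 (SE 0.12, limma adjusted p 0.781). Itgav, the integrin alpha-v subunit that pairs into receptors for fibronectin, periostin and osteopontin, read 0.14, 0.10 and -0.03 in WT and 0.21, 0.20 and 0.22 in FoxO1 +/- wounds. The groups did not overlap, as for 11.5% of all genes, and the difference was 0.14 (SE 0.07, limma adjusted p 0.845).

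Genes known to respond to the same inputs as the CCN genes had median differences close to that of all genes. Of 19 measured YAP and TEAD targets other than the members, 9 had higher and 10 lower values, with a median of 0.00. Among them 1, Dlc1, had an unadjusted p under 0.05, against 6.25% of all genes. Dlc1 read -0.80, -0.76 and -0.89 in WT and -0.64, -0.63 and -0.51 in FoxO1 +/- wounds. All its FoxO1 +/- values were above all WT values, and the difference was 0.22 (SE 0.08, limma adjusted p 0.742). Ankrd1, a stretch-responsive target, read 2.33, 1.69 and 1.69 in WT and 1.69, 1.65 and 1.16 in FoxO1 +/- wounds. Its groups did not overlap, by a narrow gap, and groups did not overlap for 11.5% of all genes. The Ankrd1 difference was -0.41 (SE 0.23, limma adjusted p 0.866). Of 16 TGF-beta pathway genes 11 had higher and 5 lower values, with a median of 0.02 and none past an unadjusted p of 0.05.

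Leaving out single arrays showed how far each difference rests on 1 animal. Fn1, Postn, Spp1 and Sparc kept a positive and Tnn and Ctgf a negative difference in all 6 such fits, whereas Tnc, Thbs1, Thbs2 and Cyr61 changed sign in some. The lowest and highest of these differences were 0.14 and 0.37 for Fn1, 0.16 and 0.38 for Postn, 0.20 and 1.00 for Spp1 and 0.0083 and 0.20 for Sparc. Sparc was lowest without FoxO1 +/- replicate 3, and Postn without FoxO1 +/- replicate 2. Without WT replicate 1, the array high in hair follicle markers, the difference was -1.01 for Tnn, -0.50 for Thbs1, -0.36 for Ctgf and 0.38 for Postn. Ctgf and Postn then had unadjusted limma p-values of 0.00965 and 0.0471, and their limma adjusted p-values were 0.787 and 0.877. In that fit 908 of the 16408 genes had an unadjusted p under 0.05. Without WT replicate 2, Spp1 alone of the members had an unadjusted p under 0.05, and 1493 of the 16408 genes did. No member passed the adjusted threshold in any of these fits. An exact two-sided permutation test of 3 against 3 arrays cannot go below 0.1, and the members' p-values ran from 0.2 for Postn and Ctgf to 1 for Cyr61.

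**Figure D4:**
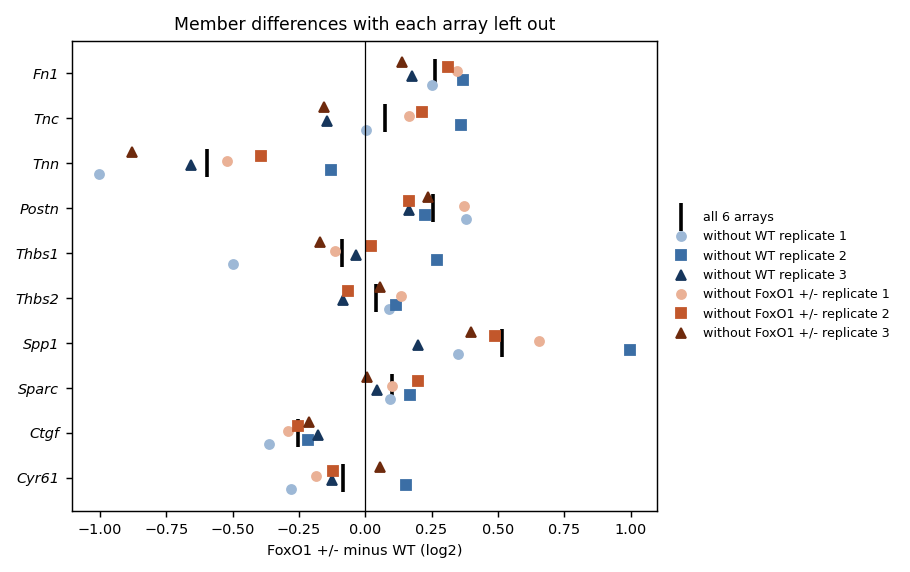
Difference of each gene between FoxO1 +/- and WT wounds (log2) with all 6 arrays (black bar) and with each array left out (points). The Spp1 point without WT replicate 2 lies at 1.00, and the Tnn point without WT replicate 1 at -1.01.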

How the data were processed

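The members and lists were chosen with earlier results of these data known. The authors deposited 1-colour Agilent scanner files of spot intensity, per the file headers from Agilent Feature Extraction 10.7.1.1 (9.1 in the submitters' processing notes), from Cy3-labelled cRNA of 200 ng of total RNA, per the labels. The intensity used was the processed signal, background-subtracted and detrended within each array. The authors' value table holds the same signal to 3 digits (largest difference 0.497%), linear and not centred, with column medians of 82.4 to 112.

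Here outlier-flagged spots were left out, signals taken as log2, spots averaged per probe, and scaled by subtracting the 75th percentile that non-control probes had on that array. That percentile was a signal of 899 to 1299. Probes well above background on every array of a genotype were kept (37898), and the brightest stood for a gene. Accessions gave symbols through a RefSeq table (GRCm38), and 29099 of 55681 probes had no symbol. The genotypes were compared with limma 3.58.1 run in R 4.3.3 (two-sided, lmFit and eBayes), and p-values were adjusted over all genes by the Benjamini-Hochberg method. The code was tested on simulated data. The few arrays limit the precision.

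The text names every member, Foxo1, the 2 list genes per list with the smallest p among those with non-overlapping groups (for the relatives, receptors and YAP and TEAD targets), and the 5 genes most like the members' mean. Normexp correction used the median spot signal, with an offset of 50.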

Additional observations from a re-analysis of the deposited data

How the results depend on the processing

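No member passed the adjusted threshold under any of the 18 alternatives fitted over all genes, nor did the other Tnc and Sparc probes. The number of members at an unadjusted p under 0.05 was 1 with arrays scaled to their median (Ctgf), beside 952 of all 16408 genes. It was 0 to 2 when single arrays were left out. The median member difference ran from -0.06 to 0.20 without single arrays and was -0.003 with quantile normalization and with slide row as a block. Over all genes, the count past the adjusted threshold was 0 with normexp, with probes well above background on all 6 arrays and with a trended, robust variance, 2 with quantile normalization, 5 with median scaling and 3 without the filter on dim probes. It was 7 with slide row as a block, 4 within slide row 1 and 0 to 28 without single arrays, highest without WT replicate 2. The count at an unadjusted p was 478 with slide row as a block, 510 within slide row 1 and 678 to 1493 without single arrays, lowest without FoxO1 +/- replicate 2. Slide row 2 held no WT array, so both row settings compare FoxO1 +/- replicate 1 alone with WT and assume that it varies like the others. The number of arrays limits each such fit, and the cause of these changes was not tested.

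Same-numbered arrays of the genotypes had deviations from their group means that correlated at -0.07, -0.14 and -0.30 over genes, so the numbers give no sign of pairs. With the replicate number as a block, 0 genes passed the adjusted threshold, and the member differences themselves are the same by construction. Signs turned in these cases: Sparc at -0.014 with quantile normalization, Tnc at -0.0011 with the mean of its probes and -0.076 on its other probe. With slide row as a block and within row 1, Tnc was -0.11, Thbs2 -0.15 and Cyr61 0.12. Without single arrays, Tnc ran from -0.16 (FoxO1 +/- replicate 3) to 0.36 (WT replicate 2), Thbs1 from -0.50 (WT replicate 1) to 0.27 (WT replicate 2), Thbs2 from -0.083 (WT replicate 3) to 0.13 (FoxO1 +/- replicate 1) and Cyr61 from -0.28 (WT replicate 1) to 0.15 (WT replicate 2).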
